A study of Homo sapiens with 2 samples.

Results

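GABA is made from glutamate, taken up again by carriers, sensed by receptors and broken down to succinate, and 8 genes of these steps were followed here in HuH6 hepatoblastoma cells with and without an edited PIM3 gene. The 8 genes were listed by name and chosen by their FPKM in both libraries, GAD1 for its large difference, and each was 1 row of the 62571 rows in the table. Their roles were synthesis (GAD1, GAD2), breakdown (ABAT, ALDH5A1), receptor subunits (GABRE, GABRP) and uptake (SLC6A12, SLC6A13). HuH6 is an established line from a human hepatoblastoma, an embryonal liver tumour. HuH6_WT held the unedited cells, and PIM3_KO held HuH6 cells whose PIM3 gene, which encodes a serine/threonine kinase, had been disrupted with CRISPR/Cas9. Both were grown untreated in the same serum-containing medium. Each group had 1 library, so the differences below could not be tested against the spread between cultures. Whether the edited cells were a clone or a pool is not given in the sources used here, and other differences between the cultures cannot be told apart from the edit.

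Glutamate decarboxylase, encoded by GAD1 or GAD2, makes GABA with pyridoxal phosphate as cofactor. GABA transaminase (ABAT) and succinic semialdehyde dehydrogenase (ALDH5A1) then pass its carbon to the tricarboxylic acid cycle in mitochondria, a route called the GABA shunt. GABA is best known as the inhibitory transmitter of the brain, but liver also takes it up and degrades it.

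PIM3 itself measured 34.2 and 14.0 FPKM in HuH6_WT and PIM3_KO, where FPKM is the number of fragments scaled to transcript length and to library size. Of 12 liver and hepatoblastoma markers, 10 averaged 1 FPKM or more, which is called measured here. Of these 4, the secreted proteins AFP (1.19 and 70.1 FPKM), ALB, TTR and APOA1, were at least 2-fold higher in PIM3_KO and 0 were 2-fold lower. With both libraries rescaled to the same total, 3 of the markers stayed past 2-fold higher. A correction for transcript length also left 3, and APOA1 fell short both times. Among all genes measured, 6.89% passed 2-fold upwards and 4.59% downwards, with 1 FPKM added to each value. HNF4A, a hepatocyte transcription factor, measured 36.1 and 32.7 FPKM, GPC3, a surface proteoglycan of liver tumours, 694 and 607 FPKM, and DLK1 was listed at 0 in both. The value of 1 read, seen in the low FPKM values, implied totals of 28.3 M and 22.2 M reads. A value of exactly 0 need not mean absence in this table. The ribosomal protein genes RPL7A (2 rows) and RPS18 (7 rows) were listed at 0 in all their rows. Both symbols had several rows, while each of the 8 genes had 1. Whether a 0 is as unreliable for genes with 1 row was not tested. Below, the first value of each pair is that of HuH6_WT.

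The GABA-making enzyme gene GAD1 was expressed at a moderate level in the unedited cells and at a much lower one in the edited cells. GAD1 (ENSG00000128683.13) lies on the plus strand of chromosome 2, from position 170813213 to 170861151 of GRCh38, and has 17 annotated transcripts. Its level was 42.1 FPKM in the unedited and 6.74 FPKM in the edited cells, which is 6.25-fold lower. PIM3_KO kept 16.0% of the HuH6_WT level. The exact 95% interval, for counting error alone, was 14.6% to 17.6%, based on some 4058 and 510 reads. In bulk RNA, fewer cells with the transcript and less transcript per cell cannot be told apart. On the scale used for all genes, the log2 of the PIM3_KO to HuH6_WT ratio after adding 1 FPKM to each, GAD1 stood at -2.48. This was the 39th lowest ratio of the 11253 genes that averaged 1 FPKM or more, of which 9693 were protein-coding, and 7 of the coding genes had a lower one. GAD1 was chosen for this difference, so its place describes these 2 libraries and is no test.

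The sequence around RefSeq's start of GAD1 is shown because GAD1 is the gene with the large difference. This start lies inside the interval given above, which begins at another annotated start; distances to neighbouring genes below are counted from the latter. It is RefSeq's window of 250 bases before to 50 bases after the start, on GRCh38.p14, plus strand, chr2:170816637-170816936, and the capitals mark the 2 matches to the TATA-box letters TATAAA on either strand.
GAD1 promoter: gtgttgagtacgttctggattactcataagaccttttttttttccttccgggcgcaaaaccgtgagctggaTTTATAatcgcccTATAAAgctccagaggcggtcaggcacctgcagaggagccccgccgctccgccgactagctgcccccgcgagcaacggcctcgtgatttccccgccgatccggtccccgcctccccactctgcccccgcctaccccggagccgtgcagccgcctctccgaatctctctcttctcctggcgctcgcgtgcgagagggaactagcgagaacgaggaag
The matches begin at positions -179 and -166 from the start, where 0 is the first transcribed base. These letters occurred in 11.5% of 35116 RefSeq promoter windows of the same length. The window is 61.7% G and C, against a median of 58.7% over all windows. No match was found in it for the GC box GGGCGG, the E-box CACGTG, the TCF/LEF core CTTTGA or the CRE core TGACGTCA, searched on both strands, which says only that these letters are not in this window. Of the 8 genes, 7 had a window in the table.

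An antisense gene crosses the same stretch. AC007405.2, on the minus strand of chromosome 2 from 170816293 to 170818037, overlaps GAD1 over 1745 bp, which include the whole promoter window. AC007405.2 measured 0.254 and 0.0232 FPKM, both below 1 FPKM, and no difference is read from such low values. The library kit keeps the strand, but the strand setting of the authors' counting is not given in the sources used here, so reads of the pair may have been mixed. Of 8624 windows of 75 bases, the read length, in GAD1 transcripts, 321 also occurred in AC007405.2, on either strand, and none in another annotated gene. GAD1 also has short transcripts that end early, and the table gives 1 value per gene, so the transcripts behind the 42.1 and 6.74 FPKM cannot be told apart.

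GAD2, the second glutamate decarboxylase gene (chromosome 10, 26216307 to 26304558), was listed at 0 in both libraries. Of the pair, GAD1 was the gene with a value above 0 in this table. The related decarboxylase genes were CSAD, which acts in taurine synthesis, at 6.94 and 8.01 FPKM, and GADL1 at 0.00989 and 0.0182 FPKM. CSAD did not share the lower level of GAD1, with a log2 ratio of 0.18, or -0.23 when both libraries were rescaled to the same total (TPM).

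**Figure D1:**
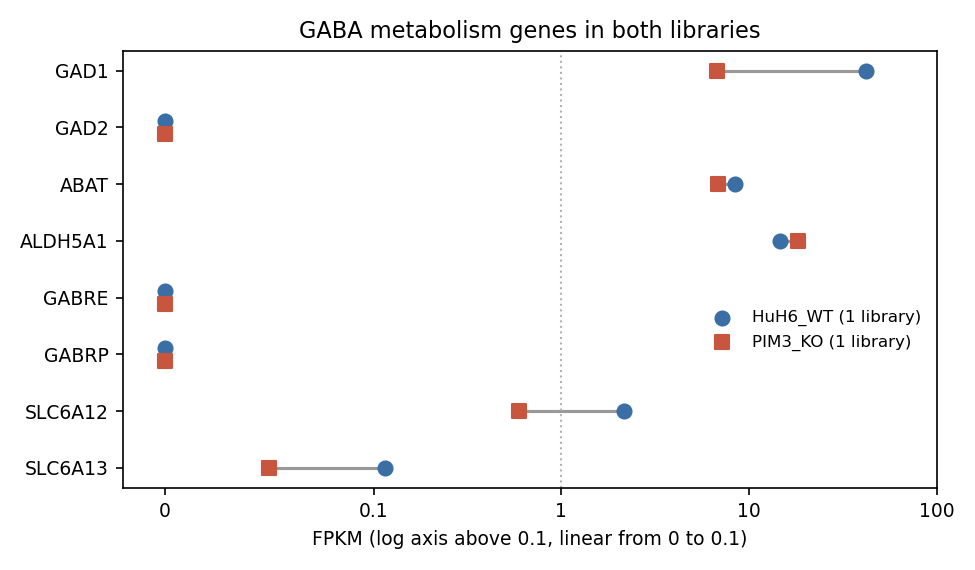
FPKM of the 8 GABA metabolism genes in HuH6_WT (circles) and PIM3_KO (squares), 1 library each, on an axis that is logarithmic above 0.1; the dotted line marks 1 FPKM. GAD1 goes from 42.1 to 6.74 FPKM, ABAT and ALDH5A1 stay close together, and GAD2, GABRE and GABRP are listed at 0 in both.

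The genes of the enzymes that degrade GABA had similar levels in the 2 libraries. ABAT, the transaminase (chromosome 16, 8674565 to 8784575), measured 8.45 and 6.85 FPKM, a log2 ratio of -0.27. Its level in PIM3_KO was 81.1% of that in HuH6_WT, with an exact 95% counting interval of 74.2% to 88.6%. ALDH5A1, the dehydrogenase of the next step (chromosome 6, 24494852 to 24537207), measured 14.7 and 18.3 FPKM, a log2 ratio of 0.30. It stood at 125% of the parental level, with an interval of 113% to 137%. These intervals leave out 100%, yet they hold only the counting error and not the spread between cultures. The direction of ALDH5A1 also depended on scaling, with a log2 ratio of -0.14 under TPM, while ABAT was at -0.68 there and at -0.04 after a correction for transcript length. In HuH6_WT GAD1 had the highest FPKM of the 3 enzyme genes, and in PIM3_KO its 6.74 FPKM lay beside the 6.85 FPKM of ABAT and below ALDH5A1.

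Overlapping genes touch both values. TMEM186 shares 4192 bp with ABAT on the opposite strand and measured 9.10 and 11.2 FPKM, and GPLD1 shares 354 bp with ALDH5A1 on the opposite strand and measured 1.66 and 0.937 FPKM. Of 10210 windows of 75 bases in ABAT transcripts 79 occurred in TMEM186, and of 5594 in ALDH5A1 transcripts 166 occurred in GPLD1. AKR7A2, an aldehyde reductase that turns succinic semialdehyde into gamma-hydroxybutyrate, was more abundant than either enzyme at 72.3 and 66.1 FPKM (log2 ratio -0.13). Of the 3 measured genes of GABA breakdown, 0 differed 2-fold.

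The receptor genes GABRE and GABRP, which encode the epsilon and pi subunits of the GABA-A chloride channel, were listed at 0 in both libraries. GABRE lies on chromosome X (151953124 to 151974680, minus strand) and GABRP on chromosome 5 (170763350 to 170814047, plus strand). Antisense AC008514.1, which overlaps GABRP over 25301 bp, measured 0.176 and 0.449 FPKM.

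The uptake gene SLC6A12 was low in the unedited cells and lower still in the edited ones. It encodes the betaine/GABA carrier of liver and kidney and lies on chromosome 12 (190077 to 214570, minus strand). Its level was 2.16 FPKM in the unedited and 0.593 FPKM in the edited cells, which is 3.65-fold lower, with some 192 and 41.2 reads behind the values. The edited cells thus had 27.4% of the level, with an exact 95% counting interval of 18.9% to 38.3%. On the log2 scale of FPKM + 1, which understates differences of low genes, its ratio was -0.99, just short of the 2-fold threshold. Its neighbour SLC6A13 (220621 to 262873 of chromosome 12, minus strand), which encodes another liver GABA carrier, measured 0.115 and 0.0499 FPKM. That is about 6.5 and 2.2 reads, and the counting interval of its ratio ran from 4.19% to 238%, so no difference was detectable at this depth. The carrier genes are related in sequence, but none of the 5694 windows of 75 bases in SLC6A12 transcripts and none of the 4624 in SLC6A13 transcripts occurred in another annotated gene.

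Counted together, 4 of the 8 genes averaged 1 FPKM or more over the 2 libraries, 3 were listed at 0 in both and SLC6A13 lay below the limit. Of the 4, GAD1 passed the 2-fold threshold downwards and 0 genes passed it upwards. Among all 11253 genes at that level 4.59% were at least 2-fold lower and 6.89% at least 2-fold higher, and since the genes were listed with these values known, nothing is read from the members' share. SLC6A12 joined GAD1 past 2-fold with a pseudocount of 0.1 or none, under TPM, and when ratios were centred on the median of all genes. Rescaling to TPM lowers most ratios, because the FPKM of all rows summed to 787250 in HuH6_WT and 1086210 in PIM3_KO. It moved the median log2 ratio of all genes from 0.01 to -0.40. With the limit of 1 applied to the rescaled values, the 516 lower and 775 higher genes became 1652 and 311. Over the same 11253 genes they became 1622 and 323.

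**Figure D2:**
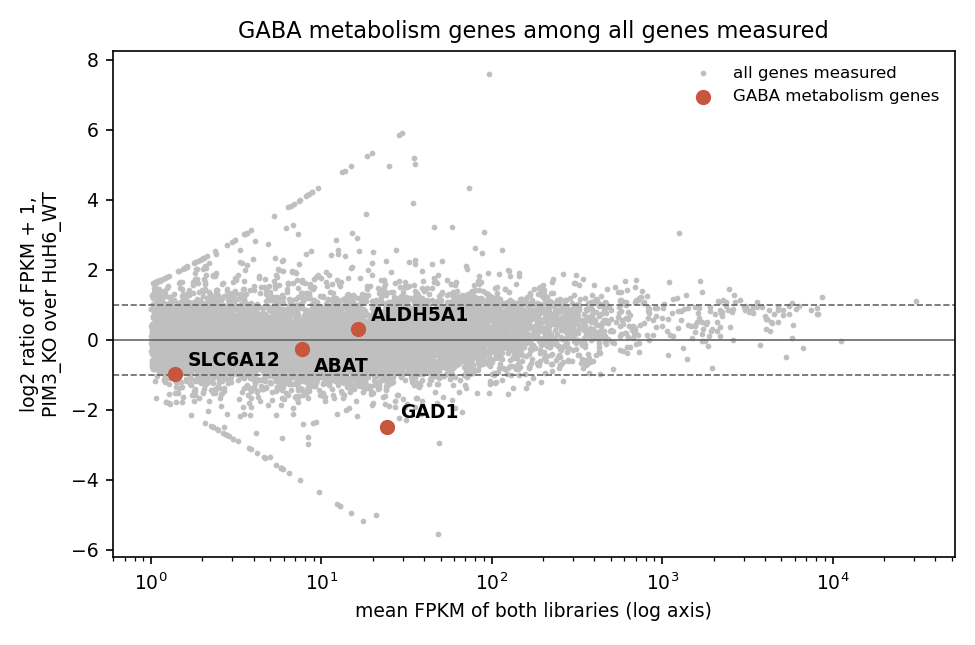
Log2 ratio (FPKM + 1) of PIM3_KO to HuH6_WT (vertical axis) against the mean FPKM of both libraries (log axis) for all 11253 genes measured (grey) and the 4 measured GABA metabolism genes (red); dashed lines mark 2-fold. GAD1 at -2.48 lies below the bulk of genes of its level, SLC6A12 at -0.99 lies at the lower line, and ABAT and ALDH5A1 lie within the bulk.

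**Figure D3:**
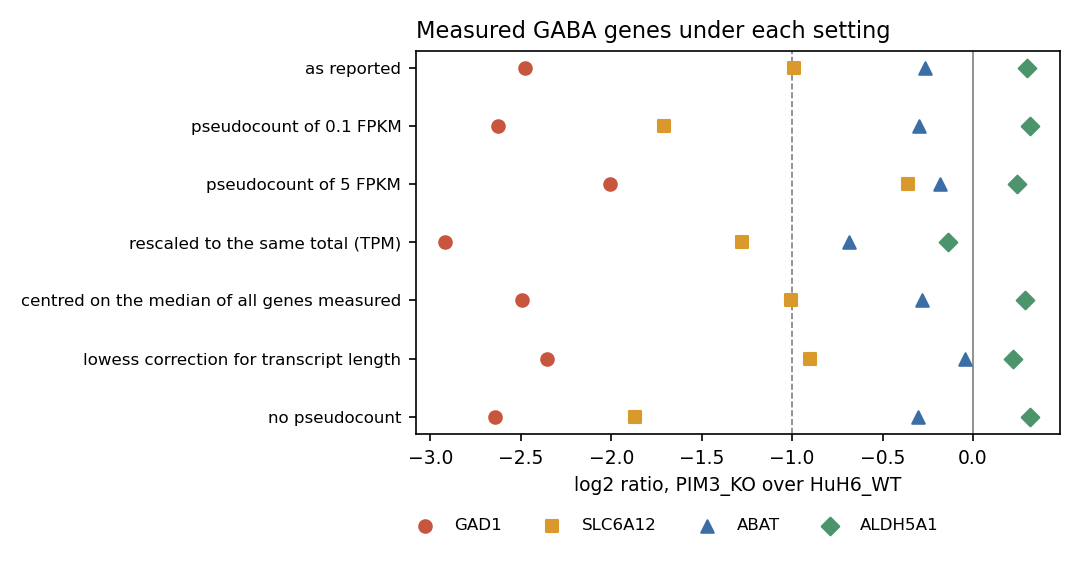
Log2 ratios (horizontal axis) of the 4 measured GABA metabolism genes under the reported setting and 6 others, with the dashed line at 2-fold lower. GAD1 stays between -2.92 and -2.00, SLC6A12 moves across the line, from -1.87 to -0.36, and ALDH5A1 changes sign under TPM.

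Among other carriers of GABA and of the related amino acid taurine, 3 were measured. With SLC6A12 and SLC6A13, the list held 7 genes, of which 4 were measured. All 4, SLC6A12 among them, had a negative log2 ratio, as did 49.0% of all genes measured, and their median was -0.88. On this scale 1 was at least 2-fold lower, and 3 were under TPM. SLC6A6, the taurine transporter, measured 42.5 and 13.5 FPKM, a 3.14-fold lower level in PIM3_KO. SLC36A1, a lysosomal and plasma membrane carrier of small amino acids that accepts GABA, measured 13.3 and 7.37 FPKM. SLC6A11, a GABA transporter known from brain astrocytes, measured 8.11 and 7.07 FPKM, and its log2 ratio of -0.17 became 0.01 after the correction for transcript length. The vesicular carrier SLC32A1 was listed at 0 in both libraries. SLC6A6 shares 239 bp with GRIP2 on the opposite strand, which measured 0.368 and 0.0468 FPKM.

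Most subunit genes of GABA receptors were listed at 0, which need not mean absence in this table. Of 19 GABA-A subunit genes, 14 were listed at 0 in both libraries, among them GABRB1 and GABRB2, which encode beta subunits. The 4 measured subunits were low. GABRA4, an alpha subunit, measured 1.31 and 3.25 FPKM, and GABRA3, another alpha subunit, 1.83 and 2.20 FPKM. GABRR1, a rho subunit, went the other way at 1.40 and 0.617 FPKM. None of the 4 differed 2-fold on the scale of FPKM + 1, and their median log2 ratio was 0.28, or -0.05 under TPM. After the correction for transcript length GABRA4 stood at 1.13, past 2-fold higher. Of the GABA-B receptor genes, GABBR2 was listed at 0 in both. Of 14 genes for receptor trafficking and anchoring, 8 were measured and 0 differed 2-fold (median -0.09), but under TPM 3 were at least 2-fold lower (median -0.50), and after the correction for transcript length GABARAPL1 was. GABARAPL1 measured 64.1 and 34.2 FPKM and TRAK1 13.9 and 7.40 FPKM, while gephyrin (GPHN) measured 17.5 and 28.0 FPKM and GABARAPL2 52.0 and 65.0 FPKM.

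Genes that supply or use glutamate, the substrate of GAD1, were spread around equality. Of 21 listed, 18 were measured, 1 passed 2-fold downwards and 0 upwards, with a median log2 ratio of 0.10. Under TPM the median was -0.33 and 2 passed downwards. SLC25A13, the mitochondrial aspartate/glutamate carrier of liver, measured 59.4 and 26.7 FPKM, and SLC1A1, a plasma membrane glutamate transporter, 9.62 and 4.59 FPKM. The highest ratios were those of BCAT1, a branched-chain amino acid transaminase, at 0.980 and 2.82 FPKM, and GOT1, the cytosolic aspartate transaminase, at 44.0 and 80.7 FPKM. After the correction for transcript length BCAT1 stood at 1.19, past 2-fold higher.

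A list of 10 genes held the tricarboxylic acid cycle steps that the GABA shunt bypasses and the next step, succinate dehydrogenase, which it does not bypass. Of these 10, 8 were measured and 0 differed 2-fold, with a median log2 ratio of 0.00. Under TPM DLD was at least 2-fold lower and the median was -0.46. SUCLG1, a succinyl-CoA ligase subunit, measured 65.0 and 120 FPKM, SDHB, a succinate dehydrogenase subunit, 113 and 139 FPKM, DLD, shared by several dehydrogenase complexes, 52.7 and 31.3 FPKM, and OGDH 19.4 and 14.5 FPKM. Of 5 genes for pyridoxal phosphate, the cofactor of GAD1 and ABAT, 3 were measured. ALPL, the tissue-nonspecific alkaline phosphatase that dephosphorylates the cofactor outside cells, measured 108 and 25.2 FPKM, a 4.31-fold lower level in PIM3_KO. PDXK, the pyridoxal kinase, went the other way at 104 and 164 FPKM, and PLPBP measured 12.5 and 9.55 FPKM. Of 6 genes for the route from putrescine to GABA, 4 were measured and 0 differed 2-fold, with a median log2 ratio of 0.43, or 0.09 under TPM. ALDH9A1, the aminobutyraldehyde dehydrogenase, measured 190 and 364 FPKM and MAOA 0.785 and 1.51 FPKM. ALDH1A1 measured 17.7 and 23.0 FPKM and ODC1, which makes putrescine, 111 and 104 FPKM. MAOB, which averaged less than 1 FPKM, went the other way from MAOA at 0.966 and 0.303 FPKM. Reads of CSAD, SLC1A1 and DLD may be mixed with those of the coding genes ZNF740, SPATA6L and LAMB1, which overlap them on the opposite strand. The pseudogene AP001052.1 (0 and 39.6 FPKM) overlaps PDXK over only 104 bp. FPKM is scaled to length, so few reads give a high value there, while PDXK had some 26063 reads in PIM3_KO.

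**Figure D4:**
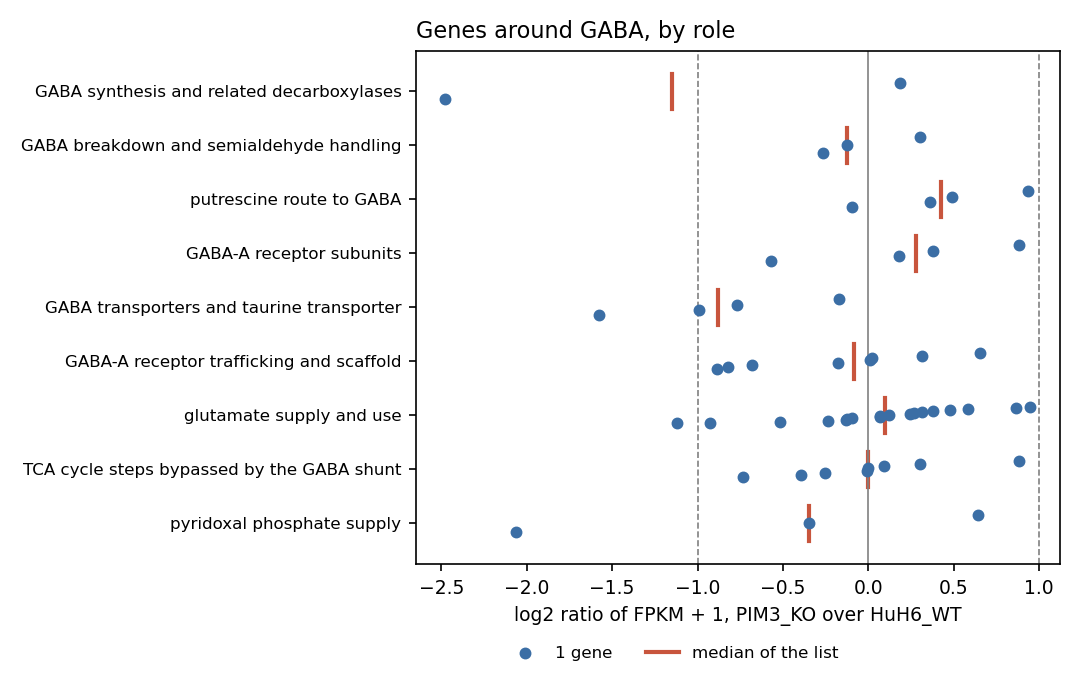
Log2 ratio (FPKM + 1) of PIM3_KO to HuH6_WT for each measured gene (points) of 9 lists around GABA, with the median of each list (bars) and dashed lines at 2-fold. GAD1 at -2.48, ALPL at -2.06 and SLC6A6 at -1.58 lie farthest to the left, the transporter list, which includes SLC6A12, has all 4 points below 0, and the glutamate list is spread around 0.

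Markers of neurons, the cells best known for GAD1, were listed at 0 or low where they had a row of their own. Of 16 listed, 14 had a row of their own, 6 were listed at 0 in both libraries and 4 were measured. All 4 had negative log2 ratios, as did 49.0% of all genes measured, with a median of -0.47. The summed level of the list was 14.2 FPKM in HuH6_WT and 8.92 FPKM in PIM3_KO. The 6 at 0 were RBFOX3, SNAP25, STMN2, ELAVL4, MAP2 and SLC17A6. ELAVL3 and TUBB3 shared rows with other genes and entered no count. The row with ELAVL3 measured 5.03 and 9.07 FPKM and that with TUBB3 207 and 281 FPKM, which cannot be assigned to 1 gene. Below 1 FPKM but above 0 were the synaptic vesicle gene SYP (0.429 and 0.432 FPKM), the interneuron genes LHX6 (0.907 and 0.656 FPKM) and DLX5 (0.463 and 0.0369 FPKM), and SLC17A7 (0.0384 and 0.0816 FPKM). The measured ones were SYT1, a synaptic vesicle protein, at 5.57 and 2.83 FPKM, and the homeobox genes DLX1 (1.55 and 0.640 FPKM), DLX2 (1.36 and 0.900 FPKM) and DLX6 (3.85 and 3.35 FPKM), which act in inhibitory neurons of the forebrain. SYT1 had a log2 ratio of -1.16 under TPM, past 2-fold lower. Of 10 islet and neuroendocrine markers 1 was measured, NKX2-2 at 1.59 and 1.75 FPKM. Of 9 leukocyte, endothelial and fibroblast markers 2 were, PDGFRB at 5.12 and 5.77 FPKM and COL1A1 at 1.49 and 1.20 FPKM. The part of other cell types in the GAD1 difference was not tested.

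Near GAD1 on chromosome 2, the level differed gene by gene. The closest measured coding genes on either side had almost equal levels in the 2 libraries. ERICH2, which starts 29.4 kb before GAD1, measured 4.85 and 4.73 FPKM, and GORASP2, a Golgi stacking protein gene that starts 115 kb after it, measured 68.5 and 67.1 FPKM. SP5, a transcription factor gene induced by WNT signalling that starts 97.9 kb before GAD1, measured 362 and 161 FPKM, a 2.25-fold lower level. TLK1 (13.3 and 8.89 FPKM), METTL8 (18.9 and 11.8 FPKM) and DCAF17 (6.44 and 4.04 FPKM) were lower by less than 2-fold, and DYNC1I2 was higher at 34.0 and 60.8 FPKM. On the other side, UBR3 measured 5.34 and 3.86 FPKM, METTL5 69.7 and 134 FPKM and SSB 172 and 215 FPKM. Under TPM METTL8 stood at a log2 ratio of -1.07, past 2-fold lower. ERICH2 and GORASP2 stood at -0.42 and -0.49 there, near the TPM median of -0.40 over all genes. Over the 10 nearest measured coding genes on each side, 14 of 20 log2 ratios were negative, with a median of -0.32 and a range of -1.16 to 1.17, against 0.01 over all genes. GAD1 at -2.48 lay below all 20. The 20 include DLX1 and DLX2, already counted above among the neuronal markers, which start 1.27 and 1.29 Mb after GAD1. Next to SLC6A12, near the end of chromosome 12, the 5 nearest measured coding genes, all on its inner side, had positive log2 ratios, 3 of which were negative under TPM. The closest, KDM5A, a histone demethylase gene, measured 20.1 and 52.8 FPKM.

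**Figure D5:**
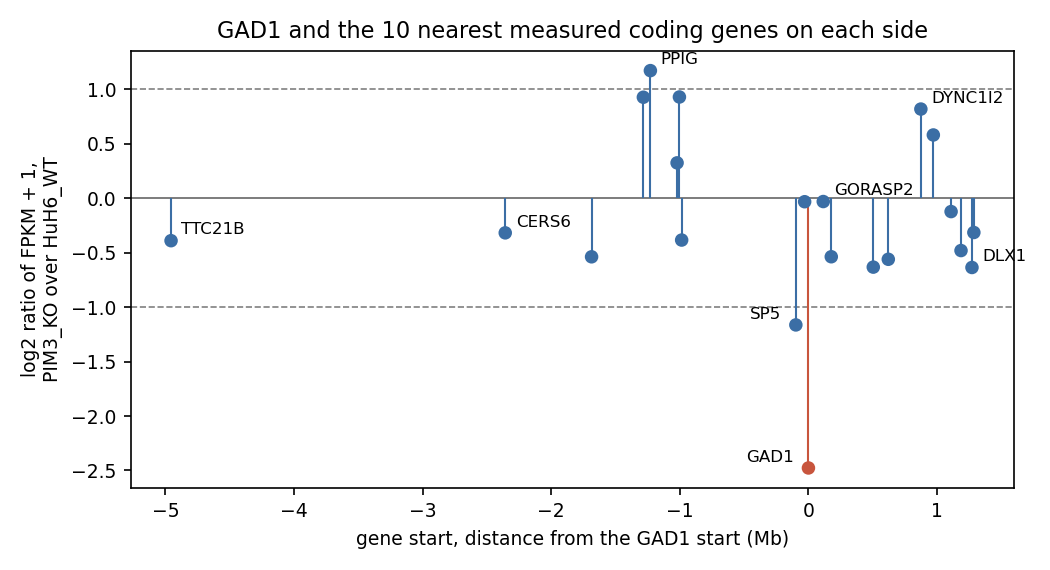
Log2 ratio (FPKM + 1) of PIM3_KO to HuH6_WT for GAD1 (red) and the 10 nearest measured protein-coding genes on each side (blue), against the distance of each gene's start from that of GAD1 in Mb; dashed lines mark 2-fold. GAD1 at -2.48 and SP5 at -1.16 are the lowest, with ERICH2 between them and GORASP2 after GAD1 near 0. Of the 20 neighbours, 14 lie below 0.

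The coding genes with the pattern most like that of GAD1 were sought among 3241 whose mean was within 2-fold of that of GAD1, by the distance between log2 ratios over these 2 libraries. They were ADAM10, a membrane sheddase, at 52.6 and 9.97 FPKM, EPB41L1, a membrane skeleton protein, at 47.5 and 9.27 FPKM, HOMER2, a scaffold protein, at 27.2 and 5.29 FPKM, the cyclin gene CCNK at 62.9 and 13.7 FPKM and PIGA, which acts in GPI anchor synthesis, at 20.6 and 3.98 FPKM. Their log2 ratios ran from -2.29 to -2.11, so all 5 were less low than GAD1. Of the 3241 candidates, 1 had a ratio as low as that of GAD1.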

How the data were processed

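Poly(A) RNA of 1 HuH6_WT and 1 PIM3_KO library was read as single-end 75 bp reads from directional libraries, per the labels' protocols. Tools named in the submitters' processing notes are STAR 2.7.3a, Cufflinks 2.2.1 and bcl2fastq 2.18.0.12, with the build GRCh38; no source used here gives the annotation release, strand setting or filters. FPKM values were deposited by the authors, 1 column per library. Of 62571 rows, 1736 joined several symbols and 2204 symbols had several rows; both kinds were left out, and 53139 symbols remained.

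Libraries were compared by the log2 ratio after adding 1 FPKM; a gene averaging 1 FPKM or more counted as measured. Members and lists were chosen with earlier results of these data known. Named genes were the members, per list those past 2-fold or the 2 highest and 2 lowest, the 5 nearest neighbours of GAD1 on each side and the 5 most like it; CSAD, GADL1, SLC32A1, the neuronal, HNF4A, GPC3 and DLK1 markers, GABRB1, GABRB2, GABBR2, KDM5A and the overlapping genes were named after their values were seen, and some of the rule's genes are not reported here. Positions and lengths (the longest principal transcript) came from GENCODE release 29 on GRCh38, promoters from RefSeq on GRCh38.p14.

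Reads were estimated from the FPKM steps of single-exon genes (600 to 5000 bp, length less 200 bp; 96.4% and 96.6% of those under 20 reads lay within 0.05 of a whole number), approximately for other genes. No count test was run. Alternatives were pseudocounts of 0.1 and 5, TPM, median centring, a lowess correction for transcript length (fraction 0.3), no filter, a mean of at least 5 FPKM, all rows of a symbol summed and, added after seeing the data, no pseudocount. Code was tested on simulated data. Python 3.11.15, pandas 2.3.3, scipy 1.17.1 and statsmodels 0.14.6 were used.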

Additional observations from a re-analysis of the deposited data

How the results depend on the processing

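GAD1 was lower in PIM3_KO under every setting run. Its log2 ratio was -2.63 with a pseudocount of 0.1, -2.00 with 5, -2.92 under TPM and, added after seeing the data, -2.64 with no pseudocount. The count of the 8 genes at least 2-fold lower was 2 instead of 1 with a pseudocount of 0.1, under TPM, with centring and with no pseudocount, the second gene being SLC6A12 (-1.71 with a pseudocount of 0.1, -1.28 under TPM and -1.87 with none); with a pseudocount of 5 SLC6A12 stood at -0.36. The count of those at least 2-fold higher was 0 under every setting run. Over all genes, a pseudocount of 0.1 gave 812 lower and a pseudocount of 5 gave 172 lower and 399 higher. TPM gave 1652 lower and 311 higher, with the limit of 1 applied to the rescaled values. The cause of these moves beyond the arithmetic of each setting was not tested. No paired analysis was possible because each group had 1 library. With 1 library per group the spread between cultures is unknown, and the counting intervals do not hold it.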

Other observations

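Several genes around GABA shared a row with neighbouring symbols and entered no count above. The row that joins GABARAP, a GABA-A receptor and autophagy adaptor, with CLDN7, CTDNEP1 and others measured 290 and 352 FPKM in HuH6_WT and PIM3_KO. The row with SDHA measured 233 and 246 FPKM, and that with ADHFE1, which oxidises gamma-hydroxybutyrate, 25.0 and 31.0 FPKM. The row with GLS2, the liver-type glutaminase, measured 19.2 and 13.4 FPKM. These are values of whole loci and cannot be assigned to 1 gene. GABBR1, the GABA-B receptor subunit gene, was joined with UBD in 7 rows, all listed at 0 in both libraries, as were the 3 rows of NSF and the 2 of NLGN2.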
